A study of Mus musculus with 12 samples.

Results

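The 10 genes described here are ligands and receptors of the epidermal growth factor (EGF) family: the ligand genes Areg, Ereg, Hbegf, Tgfa, Btc, Nrg1 and Nrg4, and the receptor genes Egfr, Erbb2 and Erbb3. They were chosen by gene symbol from the 20295 genes of the count table, and 10 of 10 passed the filter on low counts. The 12 RNA sequencing libraries came from mature epididymal white adipocytes (eWAs) that were floated from collagenase-digested fat of lean male C57/BL6J mice, embedded at 50000 cells per well in a hydrogel and cultured for 2 days. All 4 groups were cultured alike, with 3 libraries each: DMSO (vehicle), ISO (the β-adrenergic agonist isoproterenol for 3 h), Lip (lipase inhibitors alone) and Lip+ISO (lipase inhibitors followed by ISO for 3 h). The study's methods name Atglistatin, which inhibits adipose triglyceride lipase, and CAY10499, which inhibits hormone-sensitive lipase. The comparisons asked how EGF family genes responded to ISO and whether that response differed in the presence of the lipase inhibitors. These are meant to block the release of fatty acids from stored fat, which the data used here do not measure. The study's text and the sample titles name ISO as the stimulus. The figure legend for these cells also speaks of ISO, but its sentence on the treatment names the lipolysis activator SR-3420. Nothing in the labels gives an age, or says whether 1 animal or a pool supplied each well.

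EGF family ligands are made as membrane-anchored precursors, and proteases of the ADAM family cut them loose in a step called shedding. Amphiregulin (Areg), epiregulin (Ereg), heparin-binding EGF (Hbegf), transforming growth factor alpha (Tgfa), betacellulin (Btc), epigen (Epgn) and EGF itself bind the receptor EGFR, and neuregulins bind ERBB3 or ERBB4. Ligand binding pairs the receptors, and the pairs signal through Ras to the kinase ERK, whose activity induces immediate early genes. ERBB2 has no known ligand and acts as a partner of the other receptors, while ERBB3 has little kinase activity of its own. Nrg4 is known as a factor secreted by adipose tissue.

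Areg, Ereg, Btc and the related ligand gene Epgn lie side by side on mouse chromosome 5, in a stretch of 375 kb that holds no other gene of the table. In the mm9 coordinates of the table, Epgn is at chr5:91456543-91464238, Ereg at chr5:91503643-91522675 and Areg at chr5:91568641-91577458, all on the plus strand, and Btc is at chr5:91786287-91832020 on the minus strand. The gaps between neighbours are 39.4, 46.0 and 208.8 kb in that order. The spans of Nrg4 and Erbb2 overlap those of Fbxo22 and Mien1 on the opposite strand, so reads of overlapping exons cannot be assigned to either gene with certainty if counting ignored strand, which the sources used here do not state. RefSeq promoter sequences on assembly GRCm38.p6, from 250 bases before to 50 bases after the gene start, were matched for 6 of 10 members: Areg, Btc, Tgfa, Nrg4, Egfr and Erbb2. The promoters of Areg, the member with the largest rise with ISO, and of its neighbour Epgn are shown because cAMP, the messenger raised by ISO, acts in part through the cAMP response element TGACGTCA. Capitals mark matches to that element or to its first 5 letters, TGACG, on either strand, and the lines give chr5:91139349-91139648 for Areg and chr5:91027267-91027566 for Epgn, both on the plus strand.
Areg: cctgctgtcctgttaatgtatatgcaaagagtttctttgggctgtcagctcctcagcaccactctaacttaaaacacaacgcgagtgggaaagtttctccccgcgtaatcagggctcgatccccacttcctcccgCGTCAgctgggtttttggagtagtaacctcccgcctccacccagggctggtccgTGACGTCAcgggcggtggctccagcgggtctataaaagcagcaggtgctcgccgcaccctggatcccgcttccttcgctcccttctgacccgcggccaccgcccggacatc
Epgn: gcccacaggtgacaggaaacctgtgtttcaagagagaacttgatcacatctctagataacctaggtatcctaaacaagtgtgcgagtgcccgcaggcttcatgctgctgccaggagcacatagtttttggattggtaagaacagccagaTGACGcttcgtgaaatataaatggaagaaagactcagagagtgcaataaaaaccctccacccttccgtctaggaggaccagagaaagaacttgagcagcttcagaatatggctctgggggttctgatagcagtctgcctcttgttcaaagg

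Counting bases from the gene start, the Areg promoter holds TGACGTCA at -61 and a separate TGACG, on the minus strand, at -115. The full element also contains TGACG on each of its strands. TGACGTCA occurs in 588 of 32851 promoters of the same length (1.79%) and TGACG in 20.8%. The Epgn promoter holds TGACG at -101, that of Btc at -113 and that of Erbb2 at -171, and the Tgfa, Nrg4 and Egfr windows hold neither. The AP-1 letters TGANTCA (7.81% of promoters) and the EGR letters GCGTGGGCG (0.612%) were found in none of the 6 member promoters or in that of Epgn. These matches describe letters within a window and were not tested as binding sites.

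The libraries held 22632220 to 43707557 counts, so that 3 counts, the floor used here, correspond to 0.0678 to 0.132 CPM (counts per 1000000 counts of the library, after scaling by TMM). The adipocyte markers were abundant in every library: summed over 8 genes, from Fabp4 down to Lep, they gave 26300 to 41160 CPM. Markers of other cell types were lower but present, and several of their sums were higher in ISO than in DMSO. Summed macrophage markers were 50.3 to 64.0 CPM in DMSO, 97.2 to 145.7 in ISO, 52.8 to 58.5 in Lip and 62.1 to 108.8 in Lip+ISO. Of the 8 tested, 5 were higher in ISO than in DMSO, against 12.3% of all genes. Summed endothelial markers were 90.6 to 176.9, 222.5 to 406.6, 44.6 to 158.0 and 74.5 to 219.0 CPM in the same order. Summed fibroblast and preadipocyte markers were 224.0 to 416.6, 443.1 to 632.9, 305.8 to 334.8 and 278.1 to 399.8 CPM, and mesothelial markers 30.2 to 73.8, 74.9 to 92.9, 15.9 to 148.4 and 48.0 to 67.8 CPM. Taken singly, 1 of 7 endothelial markers (Cldn5) and 1 of 9 mesothelial markers (Wt1) passed as higher in ISO than in DMSO. Both counts are near the share of 12.3% of all genes. They became 6 and 2 with a replicate block, and 3 and 4 with the compared groups alone, with no share over all genes computed. Eosinophil and mast cell markers summed to at most 17.9 CPM, Schwann cell markers to at most 19.3 CPM and lymphocyte markers to at most 1.23 CPM. Of the 8 eosinophil and mast cell markers 3 were tested, and Epx and Kit were higher in ISO than in DMSO. Mean Cpa3 was 0.952 CPM in DMSO and 1.03 in ISO. Siglecf, Ccr3, Prg2, Mcpt4 and Ms4a2 averaged at most 0.341 CPM in either group. Lip replicate 3 stood apart, with 98.5 CPM of epithelial markers against at most 20.4 CPM in the other 11 libraries, and with the highest mesothelial sum. In the mesothelial list, the keratin genes Krt7, Krt8, Krt18 and Krt19 reached 22.8, 36.2, 29.7 and 24.8 CPM in the Lip group. Its other markers, Wt1, Upk3b, Upk1b, Lrrn4 and Msln, reached at most 11.6 CPM there. Among the DMSO libraries, replicate 2 had the highest endothelial, fibroblast and mesothelial sums. In bulk RNA, fewer cells of a type and less RNA per cell cannot be told apart.

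**Figure D1:**
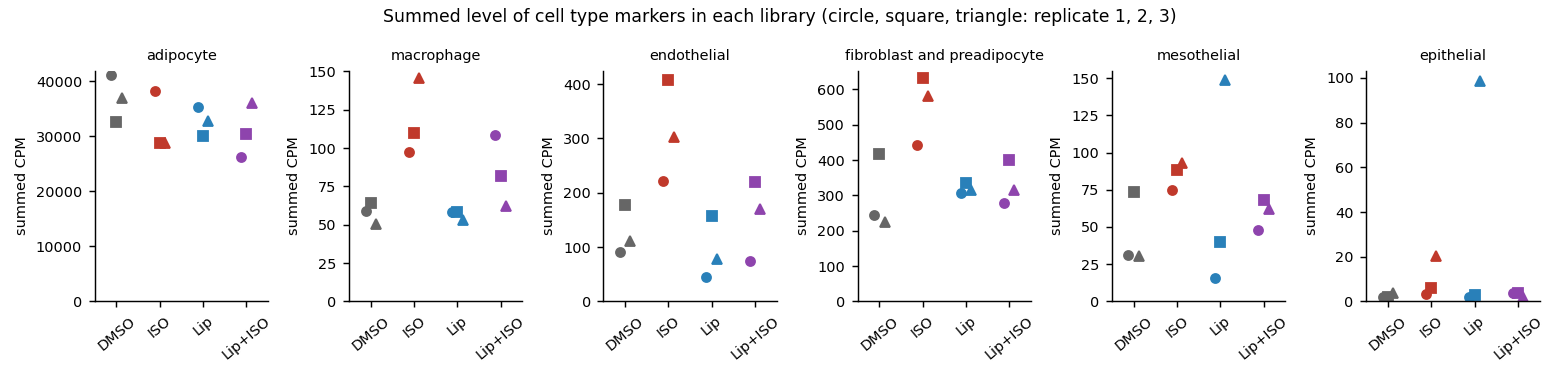
Summed level in CPM (y axis, a separate linear scale from 0 in each panel) of the markers of 6 cell types in each of the 12 libraries, by group (x axis), with circle, square and triangle for replicate 1, 2 and 3. The 3 ISO libraries sit above every DMSO library for the macrophage, endothelial, fibroblast and preadipocyte, and mesothelial sums. The mesothelial gap is narrow, with 73.8 CPM in the highest DMSO and 74.9 CPM in the lowest ISO library. Singly, 1 of 7 endothelial and 1 of 9 mesothelial markers passed as higher, against 12.3% of all genes. Lip replicate 3 stands alone at 98.5 CPM for epithelial markers.

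With ISO alone, 4 of the 10 EGF family genes rose and 1 fell. Areg rose 9.24-fold, Ereg 4.44-fold, Hbegf 2.53-fold and Egfr 1.70-fold, while Erbb2 fell to 0.573 of its DMSO level. Each was past the threshold of 0.05 on the adjusted p of edgeR's quasi-likelihood test, fitted without a replicate block. Of the 13543 genes tested, 12.3% were called higher and 13.9% lower in this comparison. In the presence of lipase inhibitors, ISO raised Areg and Nrg4 and lowered Erbb2, against 11.5% of all genes called higher and 15.8% lower, and a replicate block raised the members called lower from 1 to 3. The inhibitors alone changed none of the 10 genes past the threshold, although Tgfa, Nrg4 and Erbb3 reached an unadjusted p under 0.05, and DESeq2 also called none. Over all genes, 0.00738% were higher and 0.0443% lower with inhibitors alone. Under ISO, the inhibitors lowered Ereg and Egfr and raised no member, against 4.36% of all genes higher and 4.59% lower. The interaction, which compares the ISO responses measured with and without inhibitors, passed for none of the 10, with Ereg, Tgfa, Nrg4 and Egfr at an unadjusted p under 0.05 and none called by DESeq2. With the replicate block, 1 member passed upward (Nrg4) and 2 downward (Ereg and Egfr). Without the block, 0.901% of all genes had a positive and 0.724% a negative interaction. The shares with the block were not computed.

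**Figure D2:**
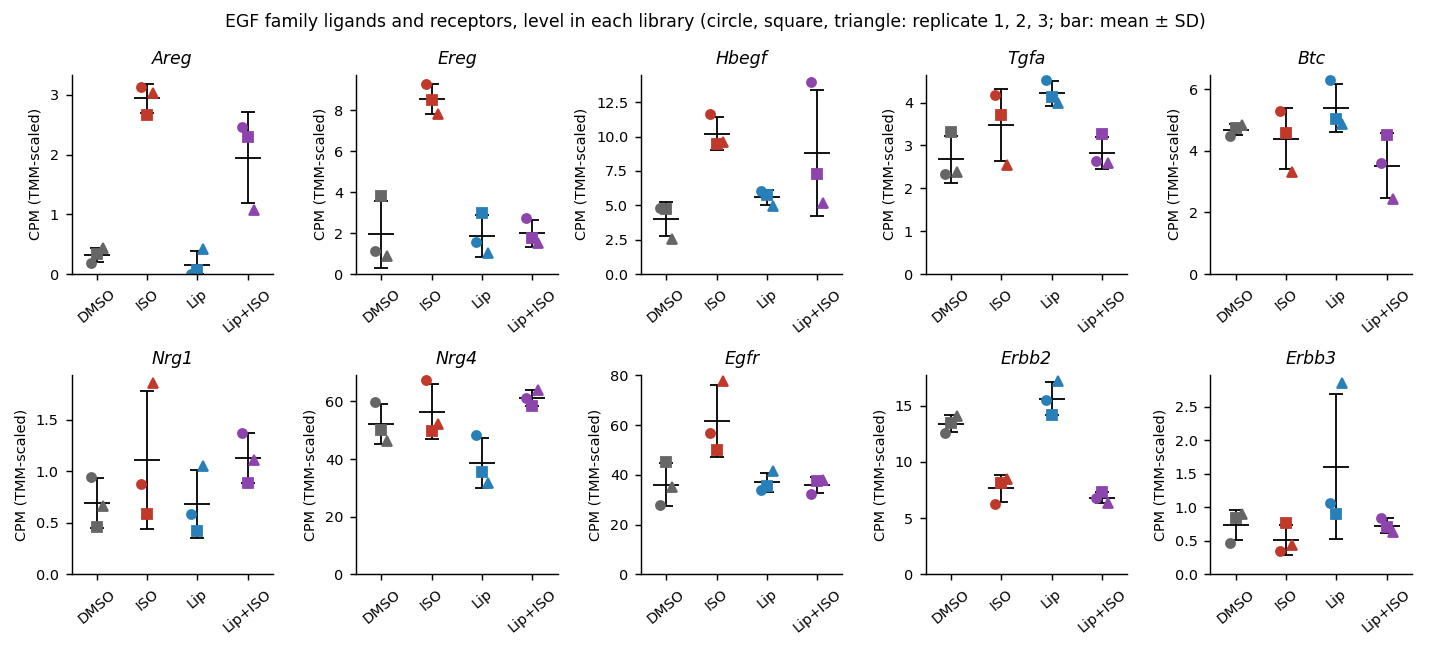
Level in CPM (y axis, linear from 0, a separate scale per gene) of the 10 EGF family genes in each library, by group (x axis), with circle, square and triangle for replicate 1, 2 and 3 and horizontal lines with bars for the group mean ± SD of 3 libraries. Areg is high in ISO and Lip+ISO, Ereg is highest in the 3 ISO libraries (7.83 to 9.29 CPM against at most 3.82 CPM elsewhere), and Erbb2 is lower in every library with ISO than in every library without.

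The members outside the cluster are spread over the genome: Tgfa lies on chromosome 6, Nrg1 on 8, Nrg4 on 9, Erbb3 on 10, Egfr and Erbb2 on 11 and Hbegf on 18. Areg, an EGFR ligand known to be induced by cAMP in several tissues, had the largest change of the 10 genes with ISO. It stood at 0.189, 0.336 and 0.431 CPM in the DMSO libraries and at 3.13, 2.67 and 3.03 CPM in the ISO libraries, from 6 to 11 and 70 to 118 counts. The Lip libraries gave 0, 0.0644 and 0.415 CPM and the Lip+ISO libraries 2.47, 2.30 and 1.07 CPM. Every library with ISO was thus above every library without it. The rise with ISO was 3.21 ± 0.67 on the log2 scale (SE, n = 3 libraries per group, adjusted p = 0.00378), and it passed in all 15 fits that left out a library or a replicate number. With inhibitors the change was 3.49 ± 0.70 (adjusted p = 0.00242). That call was lost without replicate 2 of every group (2.98, adjusted p = 0.0701), and without Lip replicate 3 the fitted change was 5.70, where the remaining Lip libraries held 0 and 2 counts. Lip replicate 3, with 15 counts of Areg, is the library with 98.5 CPM of epithelial markers, whose part in its Areg level was not tested. The Lip+ISO libraries all lay under the ISO libraries, but the difference of -0.59 ± 0.57 did not pass (adjusted p = 0.572). The interaction was 0.28 ± 0.94 (adjusted p = 0.937), with a range of ±2 SE from -1.60 to 2.15. A sizeable difference between both responses in either direction was thus not detectable at these counts.

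Ereg, a further EGFR ligand and the neighbour of Areg, rose with ISO in the absence of inhibitors and did not pass in their presence. Its level was 1.11, 3.82 and 0.900 CPM in DMSO and 9.29, 8.48 and 7.83 CPM in ISO. In Lip it was 1.58, 2.99 and 1.02 CPM, and in Lip+ISO 2.75, 1.74 and 1.51 CPM. The ISO libraries stood above the other 9, which overlapped one another. ISO against DMSO gave a log2 change of 2.15 ± 0.50 (adjusted p = 0.00759), lost without replicate 1 of every group (1.79, adjusted p = 0.082) or replicate 3 (1.87, adjusted p = 0.0601). Lip+ISO against Lip gave 0.10 ± 0.51 (adjusted p = 0.913), and Lip+ISO against ISO gave -2.09 ± 0.50 (adjusted p = 0.0205).

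The fall of Ereg from ISO to Lip+ISO had a narrow margin. It was lost without ISO replicate 2 (-2.10, adjusted p = 0.0579), ISO replicate 3 (-2.15, 0.0512), Lip+ISO replicate 2 (-2.0, 0.066), Lip+ISO replicate 3 (-1.93, 0.0814), or replicate 1 (-2.31, 0.0698) or 3 (-1.98, 0.115) of every group. The interaction of Ereg, -2.05 ± 0.71, missed the threshold (adjusted p = 0.206). It passed with the replicate number as a block (-2.12, adjusted p = 0.0474) and without DMSO replicate 2 (-2.96, adjusted p = 0.0225). DMSO replicate 2, the highest DMSO library for Ereg, was also highest there for endothelial, fibroblast and mesothelial markers (176.9, 416.6 and 73.8 CPM). Those 3 sums were also higher in every ISO library than in every DMSO library. Their part in the result for Ereg was not tested.

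Hbegf, which binds EGFR and is kept near cells by heparan sulfate, rose with ISO. Its libraries read 4.80, 4.70 and 2.58 CPM in DMSO, 11.6, 9.43 and 9.60 CPM in ISO, 6.04, 5.76 and 4.98 CPM in Lip and 13.9, 7.30 and 5.16 CPM in Lip+ISO. DMSO and ISO did not overlap, while Lip+ISO spread over the ranges of both Lip and ISO. The change with ISO was 1.34 ± 0.32 (adjusted p = 0.00928), and it lost its call without replicate 2 of every group (1.51, adjusted p = 0.0611). With inhibitors the change was 0.65 ± 0.32 (adjusted p = 0.157), which passed without Lip+ISO replicate 3 (0.92, adjusted p = 0.0365). The interaction, -0.68 with a range of ±2 SE from -1.59 to 0.22, did not pass (adjusted p = 0.56).

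Nrg4, the neuregulin made in fat, had the highest level per length of the 10 genes in all groups. It stood at 59.8, 50.0 and 46.4 CPM in DMSO, 67.4, 49.8 and 52.0 CPM in ISO, 48.4, 35.6 and 31.7 CPM in Lip and 61.3, 58.6 and 64.0 CPM in Lip+ISO. DMSO and ISO overlapped (0.11 ± 0.16, adjusted p = 0.628), whereas Lip and Lip+ISO did not. Lip+ISO against Lip gave a rise of 0.67 ± 0.16 (adjusted p = 0.00641), lost without replicate 2 (0.65, adjusted p = 0.0822) or 3 (0.51, adjusted p = 0.095) of every group. Lip against DMSO gave -0.44 ± 0.16 and did not pass (adjusted p = 0.861). The interaction was 0.56 ± 0.22 (adjusted p = 0.281), and it passed with the replicate block (0.58, adjusted p = 0.0342) and without replicate 1 of every group (0.80, adjusted p = 0.0436).

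Tgfa and Btc, both EGFR ligands, did not pass with ISO alone (0.38 ± 0.23, adjusted p = 0.248, and -0.09 ± 0.24, adjusted p = 0.806). Tgfa was at 2.34, 3.31 and 2.39 CPM in DMSO, 4.18, 3.71 and 2.55 CPM in ISO, 4.53, 4.12 and 3.98 CPM in Lip and 2.63, 3.26 and 2.58 CPM in Lip+ISO. Btc was at 4.48, 4.74 and 4.85 CPM in DMSO, 5.28, 4.59 and 3.33 CPM in ISO, 6.29, 5.02 and 4.87 CPM in Lip and 3.60, 4.52 and 2.42 CPM in Lip+ISO. For both genes the Lip+ISO libraries lay under the Lip libraries without overlap, in contrast to Areg and Nrg4. The differences, -0.58 ± 0.23 for Tgfa (adjusted p = 0.0886) and -0.61 ± 0.24 for Btc (adjusted p = 0.0793), missed the threshold. They passed with the replicate block (-0.59, adjusted p = 0.0468, and -0.63, adjusted p = 0.0333), and Btc also without Lip+ISO replicate 2 (-0.84, adjusted p = 0.0336). Nrg1, a ligand of ERBB3 and ERBB4, ranged over 0.418 to 1.86 CPM and passed in no comparison, with log2 changes of 0.64 ± 0.50 (ISO against DMSO, adjusted p = 0.366) and 0.70 ± 0.49 (Lip+ISO against Lip, adjusted p = 0.34).

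Of the 3 receptor genes, Egfr rose and Erbb2 fell with ISO, and Erbb3 passed in no comparison. Egfr, the receptor of most of these ligands, was at 28.0, 45.1 and 35.2 CPM in DMSO, 56.8, 50.0 and 77.7 CPM in ISO, 33.9, 35.4 and 41.5 CPM in Lip and 32.2, 37.7 and 38.1 CPM in Lip+ISO. As for Ereg, the ISO libraries stood above all others, and the other 3 groups overlapped. The rise with ISO was 0.77 ± 0.18 (adjusted p = 0.00809), lost without replicate 1 (0.66, adjusted p = 0.0555) or 3 (0.55, adjusted p = 0.118) of every group. With inhibitors the change was -0.04 ± 0.18 (adjusted p = 0.912). Lip+ISO was lower than ISO by -0.77 ± 0.18 (adjusted p = 0.019).

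The lower Egfr level of Lip+ISO against ISO lost its call without ISO replicate 3 (-0.57, adjusted p = 0.0859), Lip+ISO replicate 1 (-0.70, 0.0576), or replicate 1 (-0.74, 0.0687) or 3 (-0.61, 0.188) of every group. The interaction of -0.80 ± 0.26 for Egfr (adjusted p = 0.164) passed with the replicate block (-0.80, adjusted p = 0.0431). Of the 7 fibroblast and preadipocyte markers, 2 passed as higher in ISO than in DMSO, against 12.3% of all genes. In Lip+ISO against ISO 2 were lower, against 4.59%. Both times they were Pdgfra and Col1a1, named here after their values were seen. Pdgfra was higher in ISO than in DMSO by 0.93 ± 0.23 (adjusted p = 0.0109) and lower in Lip+ISO than in ISO by -1.03 ± 0.23 (adjusted p = 0.0152). Col1a1 changed by 0.96 ± 0.18 and -0.73 ± 0.18 (adjusted p = 0.00185 and 0.0237). Mean Pi16 went the other way, from 2.095 CPM in ISO to 2.314 in Lip+ISO. With the replicate block 6 of the 7 were higher in ISO than in DMSO, with no share over all genes computed. For endothelial markers it was 1 of 7, Cldn5, near the share of 12.3%, and 6 with the block. The part of these cells in the Egfr result was not tested.

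Erbb2, the receptor without a ligand of its own, fell with ISO whether or not lipases were inhibited. It read 12.6, 13.4 and 14.1 CPM in DMSO and 6.30, 8.12 and 8.52 CPM in ISO. With inhibitors it read 15.5, 14.2 and 17.2 CPM without ISO and 6.79, 7.34 and 6.35 CPM with it. The 6 libraries with ISO all lay under the 6 without. The changes were -0.80 ± 0.14 (adjusted p = 0.00107) and -1.19 ± 0.14 (adjusted p = 3.33e-05), and each passed in all 15 fits that left out a library or a replicate number. The interaction of -0.39 ± 0.19 did not pass (adjusted p = 0.412), and Lip+ISO did not pass against ISO (-0.17, adjusted p = 0.52).

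Erbb3, the receptor with little kinase activity, was the gene with the least signal per length over DMSO, ISO and Lip+ISO. It read 0.474, 0.839 and 0.900 CPM in DMSO, 0.352, 0.769 and 0.432 CPM in ISO, 1.07, 0.901 and 2.85 CPM in Lip and 0.849, 0.704 and 0.635 CPM in Lip+ISO. The value of 2.85 CPM belongs to Lip replicate 3, the library with 98.5 CPM of epithelial markers. Lip against DMSO gave 1.14 ± 0.48 (unadjusted p = 0.036 in edgeR's test, adjusted p = 1) and 0.42 without Lip replicate 3. Lip+ISO against Lip gave -1.14 ± 0.49 (adjusted p = 0.105) and -0.43 without Lip replicate 3.

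**Figure D3:**
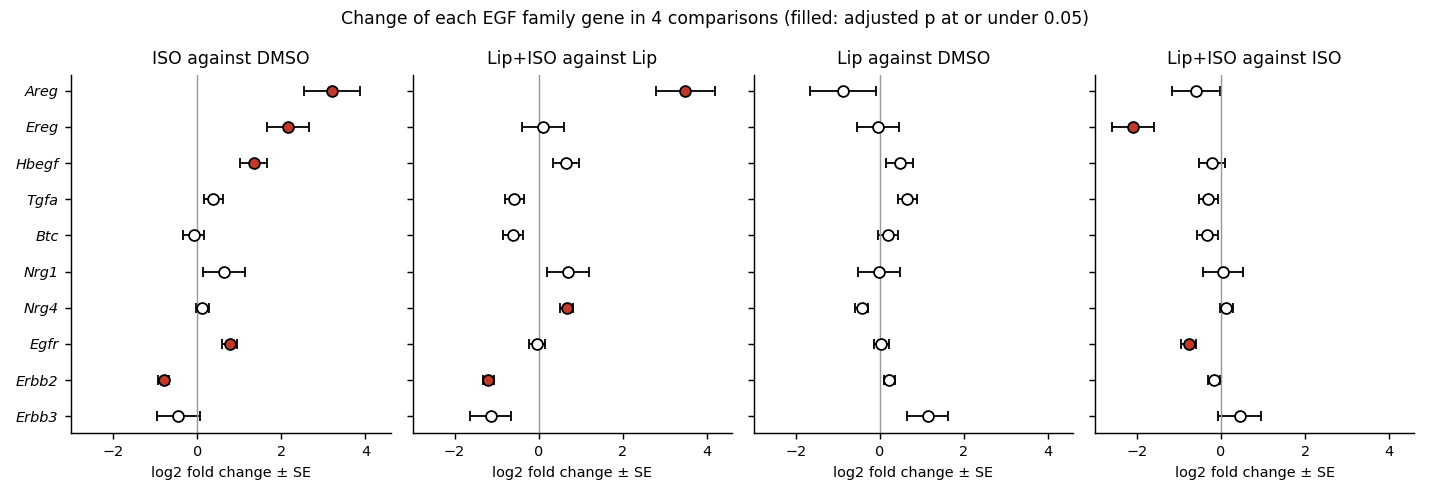
Log2 fold change ± SE (x axis) of the 10 EGF family genes (y axis) in 4 comparisons of groups of 3 libraries, with filled points where the adjusted p of edgeR's test was at or under 0.05. Areg and Erbb2 are filled in both comparisons with ISO against its own control, Ereg, Hbegf and Egfr in ISO against DMSO but not in Lip+ISO against Lip, and Nrg4 in the latter but not the former.

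The EGF family genes outside the 10 were scarce. Egf read 0.853, 0.420 and 1.06 CPM in DMSO, 0.749, 0.204 and 0.649 CPM in ISO, 1.37, 1.09 and 0.968 CPM in Lip and 0.121, 0.371 and 0.556 CPM in Lip+ISO. It was lower in Lip+ISO than in Lip by -1.70 ± 0.58 (adjusted p = 0.0458), a call that only 4 of 15 fits leaving out a library or replicate number retained (adjusted p up to 0.307), and that was lost with the 2 groups alone (adjusted p = 0.0505) or without a filter on low counts (0.0518). Epgn had 1 count in each DMSO library and 12, 24 and 7 counts in ISO, a ratio of 12.9 with a 95% counting interval of 4.13 to 65.0 that covers counting error only (edgeR adjusted p = 0.0102). This call was lost without replicate 2 or 3 of every group (adjusted p up to 0.0847). In Lip it had 0, 7 and 5 counts and in Lip+ISO 15, 7 and 9 (adjusted p = 0.102). Nrg2, Nrg3 and the receptor Erbb4 had at most 8, 6 and 6 counts in any library and were not tested.

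Along the chromosome 5 cluster, the 3 neighbouring plus-strand genes Epgn, Ereg and Areg rose with ISO, and Btc, 208.8 kb from Areg and on the other strand, did not pass (-0.09 ± 0.24, adjusted p = 0.806). With inhibitors, Areg alone of the 4 passed. Immediately outside the cluster, Mthfd2l did not pass with ISO (0.06, adjusted p = 0.883), while Parm1 rose without inhibitors (1.75, adjusted p = 2.33e-07) and with them (2.82, adjusted p = 2.79e-09). The chemokine gene Cxcl1, 136.3 kb from Epgn, rose with ISO (1.16, adjusted p = 0.0379) and was at -0.15 with inhibitors (adjusted p = 0.824). Cxcl2, which lies between Cxcl1 and the cluster, did not pass with ISO (0.48, adjusted p = 0.577). Beyond Parm1, neither Rchy1 (0.07, adjusted p = 0.611) nor Cdkl2 (-0.30, adjusted p = 0.0825) passed with ISO. Neighbouring genes are not independent of one another, and no test of the cluster as a unit was made.

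**Figure D4:**
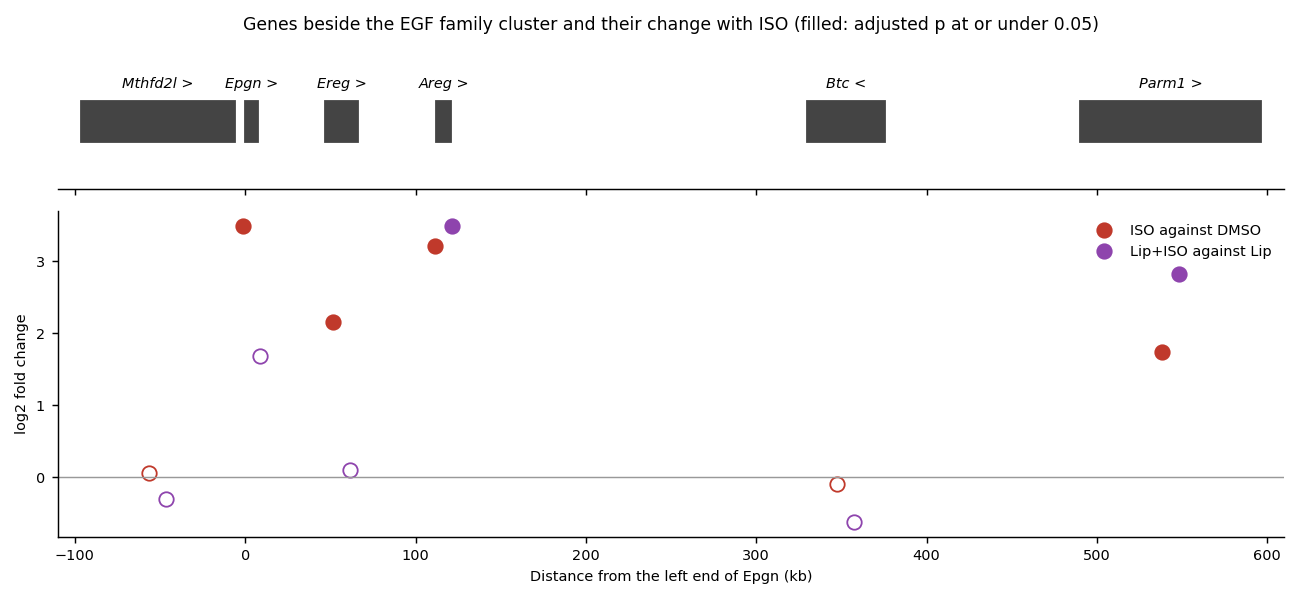
Genes of the chromosome 5 cluster and their nearest neighbours drawn to scale by distance from the left end of Epgn in kb (x axis; > and < give the strand), above their log2 fold change (y axis) in ISO against DMSO (red) and Lip+ISO against Lip (purple), filled where the adjusted p was at or under 0.05. Epgn, Ereg and Areg are filled in red, only Areg of the 4 cluster genes is filled in purple, and the value of Epgn is a fitted one that rests on 1 count per DMSO library.

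Per kilobase of counted length, the levels of the 10 genes in DMSO ran from Nrg4 at 29.6 ± 3.94 CPM per kb (SD, n = 3) over Egfr at 6.06 ± 1.44, Erbb2 at 2.68 ± 0.150, Hbegf at 1.70 ± 0.527 and Btc at 1.63 ± 0.0660 to Tgfa, Ereg, Nrg1, Areg and Erbb3 at 0.634 down to 0.184. From Tgfa on, each gene's libraries overlapped those of the next, as did those of Hbegf and Btc. In ISO, Hbegf at 4.30 ± 0.515 CPM per kb, Areg at 2.45 ± 0.201 and Ereg at 2.06 ± 0.178 followed Nrg4 and Egfr, with Areg and Ereg overlapping. Erbb2 fell behind them at 1.53 ± 0.237. In Lip+ISO, Areg kept rank 4 at 1.62 ± 0.634 CPM per kb, with libraries that overlapped those of Erbb2 at rank 5. Ereg was at rank 9 there with 0.483 ± 0.159, overlapping Nrg1 at rank 8. In Lip, Areg was last at 0.133 ± 0.186 CPM per kb, overlapping Nrg1 at rank 9.

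Of 12 genes for enzymes and helpers that release the ligands, 11 were tested, and with ISO 2 rose and 2 fell, against 12.3% and 13.9% of all genes. With ISO, the proteases Adam19 (0.54, adjusted p = 0.0248) and Adam12 (0.39, adjusted p = 0.046) rose, and the protease Bace1 (-0.39, adjusted p = 0.0181) and Rhbdf1 (-0.29, adjusted p = 0.0116), an inactive rhomboid that assists ADAM17, fell. With library totals in place of TMM scaling, neither Adam19 (adjusted p = 0.06) nor Adam12 (adjusted p = 0.08) passed. Adam17, the main sheddase of EGFR ligands, did not pass at 61.5 ± 3.68 CPM in DMSO and 64.3 ± 3.62 CPM in ISO (SD, n = 3), nor did Adam10 at 82.9 ± 6.82 and 84.4 ± 5.29 CPM. The median change of the 11 genes was -0.01, against 0.00 over all genes. Under ISO, inhibitors raised Adam9 (0.33, adjusted p = 0.0252) and Furin (0.32, adjusted p = 0.0463) and lowered 4 genes, led by Adam19 (-0.74, adjusted p = 0.0119) and Rhbdf2 (-0.62, adjusted p = 0.0137). These 8 calls each failed in 3 to 13 of the 15 fits that left out a library or replicate number, most often for Furin (adjusted p up to 0.302) and Adam12 (up to 0.173). The 2 higher and 4 lower of 11 compare with 4.36% and 4.59% of all genes, and with the groups compared alone none was higher. In Lip+ISO against Lip, 0 of 11 rose and 3 fell, against 11.5% and 15.8% of all genes. Library totals made that 5 lower, and the replicate block made it 1 higher. With inhibitors alone none passed.

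Feedback inhibitors of the receptors were mixed. Of 15 tested, 4 rose and 3 fell with ISO, at a median of 0.08, against 12.3% and 13.9% of all genes. Errfi1, which binds and inhibits EGFR and ERBB2, rose from 91.8 ± 3.31 to 161.1 ± 12.1 CPM (0.81, adjusted p = 0.00153), and Spry4, an inhibitor of receptor signalling to Ras, from 127.2 ± 6.75 to 180.4 ± 15.4 CPM (0.50, adjusted p = 0.00154), both in all 15 such fits. The ubiquitin ligase gene Cblb also rose (0.49, adjusted p = 0.0247, passing in 10 of 15), but not with library totals (adjusted p = 0.0528), where 2 rather than 4 genes rose. Lrig3 (-0.68, adjusted p = 0.0282, 9 of 15), Spry1 (-0.56, adjusted p = 0.0212, 9 of 15) and Lrig1 (-0.44, adjusted p = 0.00756, lost without replicate 2 of every group at 0.12) fell. The replicate block raised the falls from 3 to 5. With inhibitors present, ISO lowered 7 of 15 and raised 1, at a median of -0.25, against 15.8% and 11.5% of all genes. With the groups compared alone 4 were lower, and with the replicate block or DESeq2 2 were higher. Under ISO, inhibitors lowered 7 and raised none (4.59% and 4.36% of all genes), led by Spry4 (-1.53, adjusted p = 1.3e-06) and Spry1 (-0.99, adjusted p = 0.00265). Spry4 was the 1 gene of these lists that inhibitors alone lowered (-0.73, adjusted p = 0.0142), to 76.7 ± 8.01 CPM. The interaction passed for Spry1 and Spry4, both downward, against 0.724% of all genes. It passed for 6 genes with the block and 5 with DESeq2, all downward, with no share over all genes computed for those fits.

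Of the 19 adaptor, Ras and ERK cascade genes, 3 rose and 4 fell with ISO, at a median of -0.05, which is near the shares over all genes (12.3% and 13.9%). Gab1 (-0.94, adjusted p = 0.000489) and Sos2 (-0.64, adjusted p = 0.00196), which link receptors to Ras, fell in all 15 fits that left out a library or replicate number. The phosphatase gene Ptpn11 fell (-0.33, adjusted p = 0.0102), and the adaptor gene Gab2 (0.29, adjusted p = 0.00771) and the kinase gene Map2k1 (0.26, adjusted p = 0.0314) were among those that rose, in 7 to 13 of 15 such fits. The replicate block raised the number of rises from 3 to 6. With inhibitors present, ISO raised 7 and lowered 2, against 11.5% and 15.8% of all genes, and the number lowered became 6 with library totals and 4 with the replicate block. Under ISO, inhibitors raised 3 of 19, among them Grb2 (0.39, adjusted p = 0.00154), and lowered Gab2 (-0.45, adjusted p = 0.00135), against 4.36% and 4.59% of all genes. With the block the last counts were 5 and 2. Inhibitors alone changed none of the 19.

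Most of the 14 listed genes that are known to respond to ERK rose with ISO. Of 14 tested, 10 rose and 2 fell, against 12.3% and 13.9% of all genes, at a median of 1.48 against 0.00 over all genes. The list was chosen with earlier results of these data known, so these counts are a description and not an independent test. Egr1 (3.52, adjusted p = 1.94e-08), Dusp5 (2.82, adjusted p = 2.85e-07) and Ier3 (2.69, adjusted p = 5.88e-07) led, whereas Cyr61 (-0.84, adjusted p = 0.00445) and Etv5 (-0.48, adjusted p = 0.0162, in 10 of 15 fits) fell. With inhibitors 8 rose and 3 fell (11.5% and 15.8% of all genes), at a median of 0.68, and Egr2 (0.20, adjusted p = 0.649) and Egr3 (0.44, adjusted p = 0.151) were not past the threshold. Under ISO, inhibitors lowered 8 and raised Fosl1 (0.80, adjusted p = 0.0108), against 4.59% and 4.36% of all genes. With the block or DESeq2, 2 were raised. Egr1 fell from 371.4 ± 52.7 to 41.1 ± 5.21 CPM (-3.18, adjusted p = 2.25e-07) and Fos by -1.46 (adjusted p = 0.000169). The interaction passed for Egr1 and Myc, both downward, against 0.724% of all genes. With the replicate block it passed for 2 genes upward and 7 downward, and with DESeq2 for 2 and 6. No share over all genes was computed for those 2 fits. Many of these genes also respond to other pathways, cAMP among them, and EGF receptor activity was not measured.

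**Figure D5:**
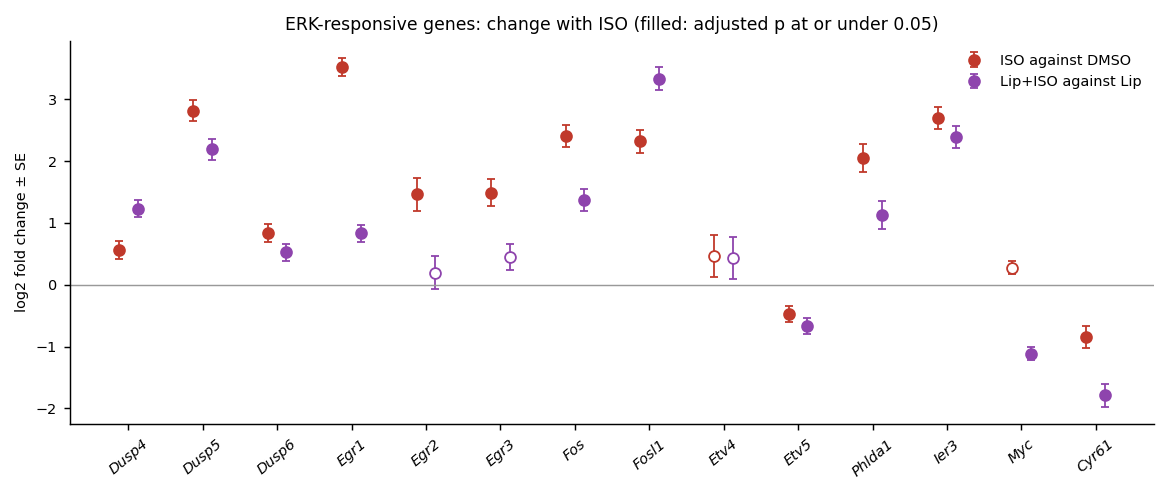
Log2 fold change ± SE (y axis) of 14 ERK-responsive genes (x axis) in ISO against DMSO (red) and Lip+ISO against Lip (purple), 3 libraries per group, filled where the adjusted p of edgeR's test was at or under 0.05. Of the 14, 10 rose in red and 8 in purple, with the widest gap for Egr1 (3.52 and 0.83).

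The genes whose levels ran most alike with Areg and Ereg over the 12 libraries differed. For Areg they were Pabpc4 (Pearson r = 0.96), Kcng2 (0.96), Siah2 (0.95), Hilpda (0.95) and Tcp1 (0.95), of which Hilpda went from 24.2 CPM in DMSO to 271.2 in ISO, 14.6 in Lip and 149.8 in Lip+ISO. For Ereg they were Egr3 (0.96), Gli3 (0.95), Ttc9 (0.95), Soat1 (0.94) and Egr2 (0.94), of which Egr3 went from 8.91 CPM in DMSO to 25.1 in ISO, 8.24 in Lip and 11.2 in Lip+ISO. Among the 10 members the closest pair was Ereg and Egfr (r = 0.77). These values describe 12 libraries in 4 groups, share their library totals and scaling, and were picked as the highest of many, so they carry no test.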

How the data were processed

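The authors aligned reads to mm9 with STAR 2.4.2a, kept 1 read per position and length in HOMER, and counted reads per RefSeq gene with iRNA-seq; library preparation followed TruSeq2. The deposited table holds raw counts of 12 libraries and gene lengths, and 0 columns of other series. Positions are the table's, with 1 added to its starts, which count from 0. Groups and replicate numbers came from the sample titles. The study states 3 independent experiments; p-values measure the spread between these libraries.

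In R 4.3.3, genes were filtered with filterByExpr (13543 kept of 20295) and scaled by TMM (0.924 to 1.07), and edgeR 4.0.16 was used to fit all 12 libraries by quasi-likelihood, each group having its own mean. Tests were two-sided, with Benjamini-Hochberg adjustment over all tested genes, and a gene passed at an adjusted p at or under 0.05. CPM are TMM-scaled, and log2 CPM used a prior count of 2. The fitting procedure was checked on simulated data. Alternatives were RLE scaling, library totals, DESeq2 1.42.0, no filter, the compared groups alone, a minimum change of 1, a replicate block, and leaving out each library or replicate number (15 fits). Shares over all genes were computed for the main fit only, so counts from the alternatives have none of their own.

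Same-numbered libraries deviated together, with correlations of 0.139 to 0.331 in ISO against DMSO, 0.192 to 0.298 in Lip+ISO against Lip and 0.197 to 0.369 in Lip against DMSO, so the numbers were taken to pair these. In Lip+ISO against ISO they were 0.102, 0.311 and 0.0373. The main fit had no replicate block, so its p-values do not use this pairing. With the block, the interaction passed for Ereg, Egfr and Nrg4, and Tgfa and Btc passed in Lip+ISO against Lip.

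The members and gene lists were chosen with earlier results of these data known, so their counts beside the shares over all genes are descriptions and not independent tests. Besides the members and their family, the genes named were the 3 largest rises and falls per list in ISO against DMSO, the 2 largest per direction in Lip+ISO against ISO, and the 5 genes most like the 2 most changed members with a mean of at least 1 CPM. Some genes this rule takes are not reported here. Genes of the interaction, chromosome 5 neighbours, Adam10, Adam17, Egr2, Egr3, and the cell type markers Pdgfra and Col1a1, were named after their values were seen. Promoters came from RefSeq (GRCm38.p6).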

Additional observations from a re-analysis of the deposited data

Results flagged for a closer look

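No EGF family gene had a response to ISO that differed between cells with and without lipase inhibitors past the threshold of edgeR's interaction test without a replicate block. With the block, Ereg (-2.12, adjusted p = 0.0474), Egfr (-0.80, adjusted p = 0.0431) and Nrg4 (0.58, adjusted p = 0.0342) passed. The share of all genes that passed with the block was not computed. Among the other pathway genes tested, 7 passed without the block, where 0.901% of all genes had a positive and 0.724% a negative interaction. The response was smaller or more negative with inhibitors for Egr1 (interaction -2.69 on the log2 scale), Myc (-1.39), Spry1 (-1.12), Adam19 (-1.08), Rhbdf2 (-1.01) and Spry4 (-0.80), and more positive for Grb2 (0.45). Egr1 passed in all 15 fits that left out a library or replicate number, Myc in 14 (not without replicate 2 of every group, adjusted p = 0.0665), Spry4 in 12, Grb2 in 9, Rhbdf2 in 7, Adam19 in 5 and Spry1 in 3. Spry4 was at 127.2 CPM in DMSO, 180.4 in ISO, 76.7 in Lip and 62.4 in Lip+ISO. Spry1 was at 16.7, 11.3, 18.2 and 5.64 CPM in that order. The interaction of Grb2 was lost with library totals in place of TMM (0.38, adjusted p = 0.0695).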

How the results depend on the processing

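RLE scaling, DESeq2, no filter on low counts and the compared groups alone changed no call of a member. Requiring a change of at least 1 on the log2 scale left 3 members higher and 0 lower in ISO against DMSO. It left 1 higher in Lip+ISO against Lip and 1 lower in Lip+ISO against ISO. This setting dropped calls with a smaller change, such as Egfr in ISO against DMSO (0.77), and computed no new p-value. With library totals alone, 3 members were lower in Lip+ISO against Lip (Tgfa, Btc and Erbb2), and values near 0 changed sign: Ereg in Lip+ISO against Lip (-0.014) and Nrg1 in Lip against DMSO (0.0204), Lip+ISO against ISO (-0.00249) and the interaction (-0.0229). The replicate block also gave 3 lower in Lip+ISO against Lip, gave 1 member a higher and 2 a lower interaction, turned Ereg in Lip against DMSO to 0.0048, and changed no other call of a member. The cause of these changes was not tested.

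Leaving out a library or a replicate number gave 2 to 4 members higher in ISO against DMSO, 0 to 3 higher and 1 to 2 lower in Lip+ISO against Lip, 0 to 2 lower in Lip+ISO against ISO, and 0 to 1 with a higher and 0 to 1 with a lower interaction. No called member changed sign in these fits. Values that were not called and did change sign ranged, in ISO against DMSO, from -0.267 to 0.0953 for Btc and -0.0341 to 0.225 for Nrg4. In Lip+ISO against Lip they ranged from -0.276 to 0.714 for Ereg and -0.103 to 0.0584 for Egfr. In Lip against DMSO they ranged from -0.565 to 0.873 for Ereg, -0.509 to 0.383 for Nrg1 and -0.121 to 0.252 for Egfr. In Lip+ISO against ISO they ranged from -0.71 to 0.0564 for Hbegf and -0.286 to 0.642 for Nrg1. For the interaction they ranged from -0.331 to 2.52 for Areg, -0.622 to 1.15 for Nrg1 and -0.977 to 0.0336 for Erbb3. Where a group was left with 2 libraries, the spread was pooled over all groups. Areg, Nrg1, Erbb3, Egf and Epgn had few counts in some groups, which limits the precision of their changes.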
